A study of Mus musculus with 23 samples.

Results

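The comparison described here is the effect of a high-fat diet (HFD) on the liver transcriptome of mice labelled as lacking both interleukin-4 and interleukin-10 (dKO). Its members were chosen by library title and comprised 8 of the 23 liver RNA-seq libraries of the series, namely 4 from HFD dKO livers and 4 from chow dKO livers. All dKO mice were male, carried the Il4 and Il10 knockouts on a C57Bl/6 background, came from Taconic at 6 to 8 weeks of age, and then received for 15 weeks either a diet with 60% of its energy from fat or standard chow. Livers were perfused before the RNA was taken. The labels do not say that each library came from a separate mouse, so p-values measure the spread between libraries, which may be partly technical. The remaining groups serve here as comparators. They are wild-type (WT) livers, with 4 HFD and 4 chow libraries, and IL-4 single knockout (IL4KO) livers, with 3 HFD and 4 chow libraries, on the same diets. Their mice were likewise obtained at 6 to 8 weeks of age and kept on diet for 15 weeks. The labels give neither the deleted exons nor whether the genotypes were bred or housed together.

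Interleukin-10 is the main cytokine by which macrophages and lymphocytes restrain their own activation, and it signals through STAT3. Interleukin-4 signals through STAT6 and steers macrophages and lymphocytes towards type 2 responses. In the liver, inflammatory cytokines drive hepatocytes to secrete acute phase proteins, whereas fatty acids arriving from the diet activate the nuclear receptor PPARA and its targets for fat oxidation. Neutrophils, resident macrophages (Kupffer cells) and bile duct cells make up part of the same tissue and are read out in the same library.

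The 4 HFD dKO libraries held 13.5, 25.5, 22.1 and 12.7, in units of 1e6 counts, for replicates 1 to 4. The 4 chow dKO libraries held 19.7, 30.2, 16.2 and 20.5 in the same units. Levels are counts per 1e6 counts of a library (CPM), scaled also for composition. The hepatocyte markers, all 16 of which were detected, summed to 132623 to 150192 CPM in HFD dKO livers, against 92248 to 104704 CPM in chow dKO livers. Alb weighed most in that sum, with 1164910 to 2383670 counts, against at most 293505 for any other marker. By the test described below 8 of the 16 rose, 1 fell and 7 did not pass. Their mean log2 CPM minus the 8-library mean was 0.20 to 0.37 in HFD replicates 1 to 3. It was -0.28 in HFD replicate 4, within the chow range of -0.34 to -0.06. Of 8 muscle markers 5, actin and creatine kinase among them, were at 0 in all 8 dKO libraries, 2 had at most 18 counts and Des, which smooth muscle also makes, had 57 to 225 counts. Of 10 pancreatic markers 5, trypsin and lipase among them, were at 0 in all 8, 4 had at most 18 counts and Cela1 had 80 to 471 counts.

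HFD dKO replicate 4 stood apart from the other 3 HFD dKO libraries. Its root mean square distance over genes was 0.632 log2 units from the rest of its own group and 0.481 from the chow dKO mean, whereas HFD dKO replicates 1 to 3 lay 0.365 to 0.384 from their own group and 0.797 to 0.865 from the chow dKO mean. On the principal component that held 70.3% of the variance among the 8 libraries, HFD dKO replicates 1 to 3 scored from -56.9 to -47.5, HFD dKO replicate 4 scored 5.05 and the chow dKO libraries scored 32.1 to 43.6. Over all 23 libraries the main component held 39.0% of the variance. On it the chow dKO libraries scored 64.6 to 74.8, HFD dKO replicate 4 scored 43.1 and HFD dKO replicates 1 to 3 scored -17.2 to -10.2. WT and IL4KO libraries of both diets scored -31.8 to 0.70, a range that includes the scores of HFD dKO replicates 1 to 3. The chow dKO libraries and HFD dKO replicate 4 scored outside it. In dKO, falls and rises below are relative to chow dKO livers. Where no WT level is given, they do not place HFD dKO livers below or above WT. HFD dKO replicate 4 carries the HFD label and was kept as a member of its group. Results below include it. They are also given without it where that ends a call, moves the fold change of a called gene by over 1.5 times or moves a list count by more than 2 genes, and for further genes.

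The targeted genes did not check the labels. Il4 had 0 to 1 counts in the HFD dKO libraries, against 0 to 3 counts in the chow dKO libraries, and was too low to test. Il10 had 6, 8, 17 and 21 counts in the HFD dKO libraries, against 41, 67, 41 and 64 counts in the chow dKO libraries, and at most 4 counts in any WT or IL4KO library, so the libraries labelled dKO held the most Il10 reads of the series. The gene files do not show which exons those reads came from. Scaled for depth, Il10 had 0.452, 0.33, 0.789 and 1.64 CPM in HFD livers, against 1.96, 2.0, 2.39 and 2.99 CPM in chow livers (log2 fold change -1.6 ± 0.45, FDR 0.0078, -2.12 without HFD replicate 4). The ranges did not overlap, and the call was lost when every library was thinned to the depth of the smallest (FDR 0.124).

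Of 12891 genes tested with edgeR's quasi-likelihood test, 5153 (40.0%) passed a Benjamini-Hochberg false discovery rate (FDR) of 0.05 and are called changed between HFD and chow dKO livers. They split into 2506 genes that rose (19.4%) and 2647 that fell (20.5%) in HFD dKO livers, and 4075 genes (31.6%) had CPM that did not overlap between the 4 HFD and 4 chow dKO libraries. Most changes were small, with a median absolute log2 fold change of 0.60 among called genes. The larger ones leaned downwards. At 2-fold or more, 359 genes (2.78%) rose and 1081 (8.39%) fell, and at 4-fold or more 87 rose and 214 fell. At 8-fold or more the counts were 37 and 50. Without HFD replicate 4, 5962 genes (46.5%) were called, 2917 (22.8%) higher and 3045 (23.8%) lower, and 4981 of the calls were shared with the full set. The balance between directions depended on scaling, since 48.6% of calls were in the higher direction as reported, 36.1% with upper quartile factors and 28.8% with library totals only, where the median log2 fold change of all genes was -0.14 in place of -0.02. The shares of 19.4% higher and 20.5% lower are the background for the dKO list counts below. For WT list counts the background is 9.63% higher and 9.84% lower. For the difference between the diet effects in dKO and WT it is 12.6% in each direction. Below, log2 fold changes are HFD over chow with their standard error (SE), values run from replicate 1 to 4, and HFD and chow livers are dKO livers unless WT is named.

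**Figure D1:**
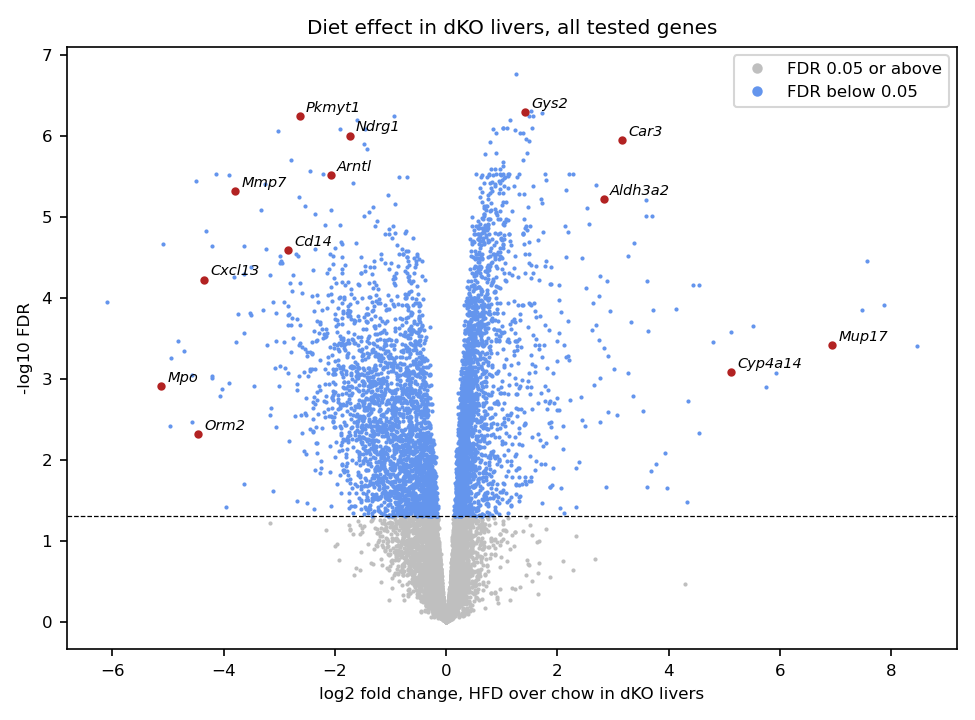
Each point is 1 of the 12891 tested genes, with the log2 fold change of HFD over chow in dKO livers on the horizontal axis and the negative log10 of the FDR on the vertical axis. Blue points passed the FDR of 0.05 marked by the dashed line, and red points name genes described in the text, with neutrophil, acute phase and bile duct genes far to the left and Mup17, Cyp4a14 and Car3 far to the right.

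Fat oxidation genes rose together in HFD dKO livers. Mitochondrial beta-oxidation breaks fatty acids down to acetyl-CoA, and 20 of its 21 tested genes rose and 0 fell (median log2 fold change 0.91, against -0.02 over all tested genes). Without HFD replicate 4, 20 rose and the median was 1.02. Cpt1a, which admits long-chain fatty acids into mitochondria, had 741, 828, 859 and 683 CPM in HFD livers, against 315, 353, 462 and 398 CPM in chow livers (log2 fold change 1.03 ± 0.11, FDR 2.06e-06, 1.09 without HFD replicate 4). Every HFD dKO library lay above every chow dKO library. Eci1, an isomerase for unsaturated chains, had 150.1, 137, 139.7 and 81.5 CPM in HFD livers, against 52.2, 53.5, 55.4 and 54.4 CPM in chow livers (log2 fold change 1.24 ± 0.12, FDR 8.35e-07, 1.41 without HFD replicate 4). Acadl, the long-chain acyl-CoA dehydrogenase, had 296, 303, 319.8 and 216 CPM in HFD livers, against 138, 143, 171 and 156 CPM in chow livers (log2 fold change 0.90 ± 0.10, FDR 1.6e-06, 1.02 without HFD replicate 4). HFD replicate 4 had the lowest HFD value for all 3 genes and still lay above the chow range.

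Peroxisomes shorten the chains that mitochondria cannot take, and 20 of 23 peroxisomal genes rose and 0 fell (median 0.75, and 0.87 without HFD replicate 4). The peroxisomal thiolase Acaa1a had 228, 229, 210.2 and 184 CPM in HFD livers, against 119.6, 123, 122 and 143 CPM in chow livers (log2 fold change 0.75 ± 0.09, FDR 5.34e-06, 0.82 without HFD replicate 4). Ech1, an auxiliary isomerase, had 426, 379.9, 411 and 253 CPM in HFD livers, against 166, 166, 194 and 201 CPM in chow livers (log2 fold change 1.02 ± 0.13, FDR 6.4e-06, 1.17 without HFD replicate 4). All 4 ketone body genes rose. Among them Acat1, the acetoacetyl-CoA thiolase, had 645, 645, 614 and 328 CPM in HFD livers, against 190.2, 209, 229 and 226 CPM in chow livers (log2 fold change 1.38 ± 0.15, FDR 1.94e-06, 1.58 without HFD replicate 4). Bdh1, which makes beta-hydroxybutyrate, had 309.6, 276, 315 and 232 CPM in HFD livers, against 124, 163, 159 and 170.3 CPM in chow livers (log2 fold change 0.88 ± 0.11, FDR 7.81e-06, 0.97 without HFD replicate 4). For Acat1, HFD replicate 4 lay between the other HFD livers and the chow livers without touching the chow range.

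Of 18 genes grouped as PPARA, its partners and other targets, 14 rose and 0 fell (median 1.17, and 1.37 without HFD replicate 4). Ppara itself had 468, 529.96, 529.6 and 354 CPM in HFD livers, against 152, 201, 246 and 162 CPM in chow livers (log2 fold change 1.31 ± 0.16, FDR 5.13e-06, 1.43 without HFD replicate 4). Fabp1, the abundant liver fatty acid binding protein, had 5185, 4731, 3831 and 2887 CPM in HFD livers, against 1406, 1632, 1698 and 2100.4 CPM in chow livers (log2 fold change 1.28 ± 0.15, FDR 3.18e-06, 1.43 without HFD replicate 4). Aldh3a2, the fatty aldehyde dehydrogenase, had 903, 694, 768 and 171 CPM in HFD livers, against 81.9, 92.7, 103 and 76.9 CPM in chow livers (log2 fold change 2.84 ± 0.33, FDR 6.02e-06, 3.16 without HFD replicate 4). The Aldh3a2 ranges did not overlap, but HFD replicate 4 was closer to the chow livers than to the other HFD livers. Among the 8 fatty acid omega-hydroxylases 5 rose and 0 fell (median 1.36). Cyp4a14 had 883, 463, 2152 and 57.9 CPM in HFD livers, against 2.44, 3.88, 66.4 and 30.2 CPM in chow livers (log2 fold change 5.12 ± 1.01, FDR 0.000819, 5.52 without HFD replicate 4). Cyp4a10 had 602, 468, 955 and 43.3 CPM in HFD livers, against 2.25, 6.9, 55 and 11.1 CPM in chow livers (log2 fold change 4.8 ± 0.85, FDR 0.000351, 5.19 without HFD replicate 4). HFD replicate 4 lay within the chow range for both, as chow replicate 3 was high, and reads of the near-identical Cyp4a paralogs may be split wrongly between genes. Cyp4f15, a related hydroxylase, had 150.4, 184, 167 and 126 CPM in HFD livers, against 87.1, 95.1, 108 and 84.1 CPM in chow livers (log2 fold change 0.75 ± 0.13, FDR 0.000123).

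The 250 bases before the annotated start of Fabp1 (GRCm38.p6, chr6:71199629-71199878, plus strand, RefSeq) are printed because Fabp1 was the most abundant PPARA target described here. Capitals mark AGGTCA, the motif that PPARA and its partner RXR read as a repeat, found on the opposite strand and so written TGACCT.
Fabp1: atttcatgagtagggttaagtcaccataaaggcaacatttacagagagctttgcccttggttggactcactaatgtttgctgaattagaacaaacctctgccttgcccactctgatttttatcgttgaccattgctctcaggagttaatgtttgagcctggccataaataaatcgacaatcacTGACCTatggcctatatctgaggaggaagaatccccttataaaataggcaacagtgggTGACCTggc
The motif lay 67 to 62 and 9 to 4 bases before the start. The other matched promoters of PPARA, peroxisomal and ketone genes, those of Ppara, Aldh3a2, Decr2, Acaa1a, Ech1 and Bdh1, did not hold it. AGGTCA on either strand occurred in 14.02% of 32851 promoters of the same length, and its repeat with a spacer of 1 base in 0.03% of them and in none of the matched promoters. The search for the single motif was added after the values were seen, and a match in these letters is not a binding site.

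Genes for storing fat were high in HFD replicates 1 to 3, while replicate 4 lay near the chow livers for the largest changes. Of 19 genes for lipid droplet coats or PPARG targets, 12 rose and 1 fell (median 0.84). Leaving out HFD replicate 4 gave 13 higher and 2 lower (median 1.11). Fabp2, a fatty acid binding protein best known from the intestine, had 141, 142, 146 and 52.3 CPM in HFD livers, against 23, 27.8, 27.5 and 25.7 CPM in chow livers (log2 fold change 2.21 ± 0.23, FDR 2.9e-06, 2.46 without HFD replicate 4). Pnpla2, the adipose triglyceride lipase, had 122, 146, 164 and 121 CPM in HFD livers, against 70.2, 67.8, 99.9 and 84.7 CPM in chow livers (log2 fold change 0.78 ± 0.12, FDR 3.96e-05). The ends of the list, named after their values were seen, were far apart. Cidea, a droplet fusion protein typical of brown fat, had 50.5, 33.1, 38.8 and 0.156 CPM in HFD livers, against 0.0958, 0.0597, 0.467 and 0.14 CPM in chow livers (FDR 0.000138). Cidec, its counterpart in white fat and fatty liver, had 112, 62.7, 104 and 1.56 CPM in HFD livers, against 0.862, 1.11, 2.86 and 1.59 CPM in chow livers (FDR 0.000219). HFD replicates 1 to 3 were high for both Cide genes and HFD replicate 4 lay within the chow range, and limma-voom did not call Cidea (FDR 0.177). Mogat1, a monoacylglycerol acyltransferase, had 5.42, 1.9, 4.27 and 0.0781 CPM in HFD livers, against 0.144, 0.0896, 0 and 0.0467 CPM in chow livers (FDR 0.000263). The scavenger receptor Cd36, which takes up fatty acids, had 175, 88.2, 199.97 and 42.6 CPM in HFD livers, against 25.6, 26.7, 34.8 and 26.1 CPM in chow livers (log2 fold change 2.16 ± 0.41, FDR 0.000534, 2.45 without HFD replicate 4). The droplet coat gene Plin4 had 121, 92.1, 223 and 16 CPM in HFD livers, against 16.9, 8.21, 28.5 and 13.8 CPM in chow livers (log2 fold change 2.76 ± 0.56, FDR 0.000965, 3.13 without HFD replicate 4). Pnpla3, a droplet lipase regulated with lipogenesis, had 1.05, 0.371, 1.11 and 1.41 CPM in HFD livers, against 5.17, 18.6, 4.32 and 4.72 CPM in chow livers (log2 fold change -3.15 ± 0.73, FDR 0.0023), with chow replicate 2 well above the other chow livers.

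Of 9 triglyceride synthesis genes 6 rose and 1 fell. Lpin2, a phosphatidate phosphatase, had 649.7, 747, 794 and 232 CPM in HFD livers, against 140.1, 131, 233 and 152 CPM in chow livers (log2 fold change 1.89 ± 0.27, FDR 4.11e-05, 2.16 without HFD replicate 4). Dgat2, which adds the last fatty acid, had 556, 541, 551 and 468 CPM in HFD livers, against 357, 408, 342 and 354 CPM in chow livers (log2 fold change 0.54 ± 0.09, FDR 0.000174). De novo lipogenesis did not share that direction. Of 14 genes 1 rose and 3 fell (median -0.10), against 19.4% higher and 20.5% lower over all tested genes. With HFD replicate 4 left out, the counts were 3 higher and 3 lower (median -0.12). The fatty acid synthase gene Fasn had 397, 389.8, 295 and 404 CPM in HFD livers, against 807, 1264, 484 and 744 CPM in chow livers (log2 fold change -1.15 ± 0.25, FDR 0.00104). The HFD and chow ranges did not overlap, and HFD replicate 4 was close to HFD replicates 1 and 2 here. Acaca, which makes malonyl-CoA, had 61.4, 54, 54.2 and 84.4 CPM in HFD livers, against 106, 126, 93.8 and 121 CPM in chow livers (log2 fold change -0.82 ± 0.19, FDR 0.002). Acly, which supplies cytosolic acetyl-CoA, had 250.3, 257, 198 and 213 CPM in HFD livers, against 372, 420.3, 315 and 323 CPM in chow livers (log2 fold change -0.64 ± 0.17, FDR 0.00409). Desaturases and elongases divided, with 4 of 12 higher and 5 lower. Fads2, which desaturates polyunsaturated fatty acids, had 773, 874, 625 and 477 CPM in HFD livers, against 188, 269, 257 and 232 CPM in chow livers (log2 fold change 1.54 ± 0.15, FDR 7.96e-07, 1.68 without HFD replicate 4). Elovl2, which elongates them, had 691, 829.9, 699 and 699 CPM in HFD livers, against 408, 448, 514 and 451 CPM in chow livers (log2 fold change 0.68 ± 0.09, FDR 1.52e-05). Fads3, a related gene, went the other way with 3.54, 1.77, 2.88 and 4.3 CPM in HFD livers, against 11.3, 13.2, 9.98 and 9.99 CPM in chow livers (log2 fold change -1.87 ± 0.28, FDR 3.12e-05).

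Cholesterol synthesis genes fell. Of 25 genes under SREBP2, 0 rose and 17 fell (median -0.68), and without HFD replicate 4 the number that fell was 14 (median -0.62). Pmvk, phosphomevalonate kinase, had 47.6, 73.6, 43.3 and 66.2 CPM in HFD livers, against 116, 132, 117 and 145 CPM in chow livers (log2 fold change -1.14 ± 0.20, FDR 0.00019). All 4 HFD livers lay below all 4 chow livers for Pmvk. Among 20 apolipoprotein and lipoprotein assembly genes 9 rose and 1 fell, and Mttp, which loads lipid onto apolipoprotein B, had 455, 449.9, 419.96 and 309.6 CPM in HFD livers, against 286, 279, 299.6 and 285 CPM in chow livers (log2 fold change 0.51 ± 0.10, FDR 0.000529, 0.62 without HFD replicate 4).

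The respiratory chain and the citric acid cycle rose by less. Complex I, which oxidizes NADH, had 22 of 37 genes higher and 0 lower (median 0.23), with 16 higher under upper quartile factors and 12 with library totals only. Ndufs1, its largest subunit, had 157, 165, 150.1 and 113 CPM in HFD livers, against 90.7, 81.4, 82.5 and 79.4 CPM in chow livers (log2 fold change 0.81 ± 0.09, FDR 2.52e-06, 0.92 without HFD replicate 4). Complexes II and III had 10 of 14 genes higher and 0 lower. Both named subunits that follow separated the diets. Sdha, the catalytic subunit of succinate dehydrogenase, had 672, 668, 644 and 465 CPM in HFD livers, against 378, 348, 368 and 364 CPM in chow livers (log2 fold change 0.75 ± 0.10, FDR 1.04e-05). Uqcrc2, a core subunit of complex III, had 278, 281, 260.4 and 203 CPM in HFD livers, against 167, 153, 160.00 and 157 CPM in chow livers (log2 fold change 0.68 ± 0.09, FDR 9.02e-06). Complex IV, with 9 of 11 higher, and ATP synthase, with 9 of 16 higher, each had 1 gene that fell. Cox7b, a complex IV subunit, had 93.5, 88.6, 89.4 and 74.3 CPM in HFD livers, against 66, 59.2, 62.6 and 66.9 CPM in chow livers (log2 fold change 0.44 ± 0.08, FDR 0.000185). Atp5a1, the ATP synthase alpha subunit, had 1158, 1173, 1134 and 930.4 CPM in HFD livers, against 733, 706, 714 and 757 CPM in chow livers (log2 fold change 0.60 ± 0.09, FDR 2.67e-05). Of 22 citric acid cycle genes 18 rose and 0 fell (median 0.50), with Sucla2, a succinyl-CoA ligase subunit, at 171, 182, 173 and 129 CPM in HFD livers, against 99.9, 90.1, 98.5 and 97.4 CPM in chow livers (log2 fold change 0.77 ± 0.09, FDR 2.9e-06).

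Amino acid breakdown showed the same direction. Of 40 genes 33 rose and 0 fell (median 0.66). Leaving out HFD replicate 4 gave 34 higher and 1 lower (median 0.77). In WT livers the same list had 3 higher and 7 lower, against 9.63% higher and 9.84% lower over all tested genes, and the difference between the diet effects in dKO and WT was called for 31 members in the higher and 0 in the lower direction, against 12.6% of all tested genes in each direction. Mccc1, which acts on leucine, had 65.9, 65.1, 62.8 and 46.1 CPM in HFD livers, against 35.3, 30.5, 31.5 and 32.2 CPM in chow livers (log2 fold change 0.89 ± 0.09, FDR 9.19e-07, 1.0 without HFD replicate 4). Mut, the methylmalonyl-CoA mutase, had 218, 244, 216 and 158 CPM in HFD livers, against 122, 109, 115 and 107 CPM in chow livers (log2 fold change 0.88 ± 0.10, FDR 2.52e-06). Aadat, an aminotransferase for lysine and tryptophan products, had 139.7, 158, 105 and 94.1 CPM in HFD livers, against 49.4, 48.5, 45.2 and 48.3 CPM in chow livers (log2 fold change 1.38 ± 0.14, FDR 9.19e-07, 1.49 without HFD replicate 4). The urea cycle, which disposes of the nitrogen, had 7 of 9 genes higher and 0 lower in HFD dKO livers. Otc, ornithine transcarbamylase, had 466, 489.6, 437 and 337 CPM in HFD livers, against 239, 216, 215 and 198 CPM in chow livers (log2 fold change 1.0 ± 0.12, FDR 3.46e-06, 1.1 without HFD replicate 4). Asl, argininosuccinate lyase, had 526, 706, 632 and 308 CPM in HFD livers, against 291, 284, 286 and 268 CPM in chow livers (log2 fold change 0.95 ± 0.18, FDR 0.00029, 1.15 without HFD replicate 4). HFD replicate 4 was the lowest HFD liver for all 5 genes and lay above every chow liver.

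Among 21 genes of gluconeogenesis, glycogen and insulin signalling 11 rose and 1 fell. Gys2, the liver glycogen synthase, had 286, 314, 230.1 and 185 CPM in HFD livers, against 91.1, 95.9, 101 and 90.6 CPM in chow livers (log2 fold change 1.42 ± 0.13, FDR 5.01e-07, 1.55 without HFD replicate 4). Slc2a2, the hepatocyte glucose transporter, had 338, 295, 278 and 201 CPM in HFD livers, against 152, 170.2, 135 and 131 CPM in chow livers (log2 fold change 0.92 ± 0.12, FDR 9.48e-06). Slc37a4, which carries glucose 6-phosphate into the endoplasmic reticulum, had 238, 253, 228 and 194 CPM in HFD livers, against 171, 146, 133 and 144 CPM in chow livers (log2 fold change 0.62 ± 0.10, FDR 8.06e-05). The groups were fully separated for all 3 genes. Ghr, the growth hormone receptor, had 553, 556, 504 and 360.2 CPM in HFD livers, against 302, 333, 294 and 259 CPM in chow livers (log2 fold change 0.73 ± 0.12, FDR 8.75e-05). Igf1, which growth hormone induces in liver, had 549, 692, 626 and 496 CPM in HFD livers, against 431, 449, 365 and 405 CPM in chow livers (log2 fold change 0.52 ± 0.15, FDR 0.00804). These were among 3 of 15 genes of that axis that rose, near the 19.4% of all tested genes, and the median of the whole list changed sign between scalings.

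Bile acid synthesis genes mostly rose, and transport genes rose or did not pass the test, with 2 that fell. Of 14 bile acid synthesis genes 8 rose and 1 fell, and the difference between the diet effects in dKO and WT was called for 9 members in the higher and 0 in the lower direction. Cyp8b1, the sterol 12-hydroxylase that makes cholic acid, had 457, 495, 391 and 177 CPM in HFD livers, against 124, 115, 120.1 and 138 CPM in chow livers (log2 fold change 1.62 ± 0.27, FDR 0.000169, 1.86 without HFD replicate 4). Cyp7b1, an oxysterol hydroxylase with higher levels in male mouse liver, had 375, 472, 134 and 243 CPM in HFD livers, against 97.4, 68.1, 56.3 and 129 CPM in chow livers (log2 fold change 1.8 ± 0.48, FDR 0.00613). Acot12, an acyl-CoA thioesterase on the same list, had 173, 181, 194 and 137 CPM in HFD livers, against 72.9, 68.9, 93.9 and 84.9 CPM in chow livers (log2 fold change 1.1 ± 0.11, FDR 7.96e-07). Of 9 uptake transporters 4 rose and 0 fell, and of 12 export transporters 6 rose and 2 fell. The export pump Abcb4, which moves phospholipid into bile, had 449, 392, 437 and 283 CPM in HFD livers, against 175, 173, 221 and 189 CPM in chow livers (log2 fold change 1.04 ± 0.12, FDR 3.26e-06). Abcc2, which exports conjugates, had 305, 361, 399 and 269 CPM in HFD livers, against 179, 172, 179.8 and 137 CPM in chow livers (log2 fold change 1.0 ± 0.13, FDR 7.08e-06). The uptake carrier Slco1b2 had 1498, 1494, 1383 and 906 CPM in HFD livers, against 692, 705, 752 and 646 CPM in chow livers (log2 fold change 0.92 ± 0.13, FDR 2.83e-05).

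Drug-metabolizing genes rose in several families. Of 42 cytochrome P450 genes of families 1 to 3, 16 rose and 5 fell. With HFD replicate 4 left out, the counts were 19 higher and 4 lower (median 0.49). The change was not uniform within a family. Cyp2e1, which oxidizes ethanol and ketones, had 9975, 12577, 11296 and 8232 CPM in HFD livers, against 3918, 3901, 4659 and 3746 CPM in chow livers (log2 fold change 1.38 ± 0.19, FDR 1.57e-05, 1.48 without HFD replicate 4). Cyp3a11, a main drug oxidase, went the other way and had 656, 296, 643 and 226 CPM in HFD livers, against 1995, 1216, 2009.95 and 1663 CPM in chow livers (log2 fold change -1.92 ± 0.36, FDR 0.000446, -1.69 without HFD replicate 4). All 4 HFD dKO livers lay below all 4 chow dKO livers. Cyp2b9, which is higher in female mouse liver, had 23.9, 3.42, 53.6 and 4.69 CPM in HFD livers, against 0.287, 2.27, 3.73 and 0.794 CPM in chow livers, and its call (FDR 0.0218) was lost without chow replicate 1 or 4 or HFD replicate 3, where the FDR ran from 0.0565 to 0.118. Por, the electron donor of these enzymes, had 744, 1019.95, 896 and 579 CPM in HFD livers, against 253, 283, 353 and 292 CPM in chow livers (log2 fold change 1.45 ± 0.16, FDR 1.6e-06, 1.59 without HFD replicate 4). Glucuronosyltransferases had 11 of 17 genes higher and 1 lower, sulfotransferases 6 of 7 higher and 0 lower, and glutathione S-transferases 8 of 21 higher and 2 lower. Their examples are Ugt3a2 with 489, 470.1, 431 and 288 CPM in HFD livers, against 204, 192, 197 and 209 CPM in chow livers (log2 fold change 1.07 ± 0.12, FDR 3.18e-06) and Sult1b1 with 39.6, 52.1, 40.8 and 24.3 CPM in HFD livers, against 15.2, 12.5, 14.2 and 14.7 CPM in chow livers (log2 fold change 1.48 ± 0.20, FDR 2.01e-05). Gstt2 had 32.1, 38.2, 37 and 26.6 CPM in HFD livers, against 11.6, 13.9, 12 and 10.3 CPM in chow livers (log2 fold change 1.49 ± 0.15, FDR 1.15e-06). Aox3, a liver aldehyde oxidase, had 942, 993, 728 and 435 CPM in HFD livers, against 257, 295, 249 and 294 CPM in chow livers (log2 fold change 1.5 ± 0.22, FDR 3.71e-05), as part of a list of carboxylesterases, flavin monooxygenases and dehydrogenases in which 18 of 27 rose and 0 fell. The nuclear receptor Nr1i3 (CAR), which controls many of these families, had 111, 125, 129.5 and 78.3 CPM in HFD livers, against 44.6, 62.6, 64 and 58 CPM in chow livers (log2 fold change 0.96 ± 0.17, FDR 0.000251). On its list of nuclear receptors and liver transcription factors 4 of 21 rose and 2 fell, against 19.4% and 20.5% of all tested genes. The part of Nr1i3 in these changes was not tested.

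The largest rises with separated groups were in major urinary protein genes, which are secreted pheromone carriers made by male mouse liver under growth hormone. Of 17 tested Mup genes 15 rose and 0 fell. Their summed level was 22908, 26399, 10865 and 14126 CPM in HFD dKO livers, against 7825, 3984, 4451 and 6464 CPM in chow dKO livers. Mup genes are near-identical neighbours on chromosome 4, so the split among members is uncertain and the sum is the safer reading. Mup1 had 489, 814, 125 and 106 CPM in HFD livers, against 10.1, 6.09, 2.86 and 6.02 CPM in chow livers (log2 fold change 5.92 ± 1.18, FDR 0.000851, 6.24 without HFD replicate 4). Mup17 had 201, 303, 67.6 and 40.1 CPM in HFD livers, against 3.78, 0.179, 0.292 and 0.934 CPM in chow livers (log2 fold change 6.94 ± 1.25, FDR 0.000382, 7.27 without HFD replicate 4). The remaining members that met the naming rule had log2 fold changes of 5.75 (Mup9), 4.55 (Mup15), 4.34 (Mup12), 4.34 (Mup7), 3.78 (Mup19), 3.64 (Mup16) and 3.37 (Mup11). Mup7 lost its call when HFD replicate 1 or 2 or chow replicate 2, 3 or 4 was left out (FDR 0.0578 to 0.082), and with limma-voom (FDR 0.0802). In the wider list of male-biased liver genes 8 of 23 rose and 0 fell in HFD dKO livers, against 0 higher and 4 lower in WT livers, and the difference between the diet effects in dKO and WT was called for 11 members in the higher and 0 in the lower direction. Cyp2d9, a male-biased steroid hydroxylase, had 1319.96, 1219, 973 and 769 CPM in HFD livers, against 645, 529, 513 and 596 CPM in chow livers (log2 fold change 0.91 ± 0.23, FDR 0.00357). Of 12 female-biased genes 4 rose and 2 fell.

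Other genes with large, separated rises were of mixed function. Car3, a carbonic anhydrase abundant in fat and male liver, had 2957, 1960.5, 2021 and 758 CPM in HFD livers, against 255, 196, 166 and 246 CPM in chow livers (log2 fold change 3.16 ± 0.31, FDR 1.11e-06, 3.43 without HFD replicate 4). Upp2, a uridine phosphorylase, had 599.8, 831, 613 and 196 CPM in HFD livers, against 56.6, 39.6, 61.9 and 28.2 CPM in chow livers (log2 fold change 3.59 ± 0.41, FDR 6.16e-06, 3.88 without HFD replicate 4). Pnldc1, an exonuclease that trims small RNAs in the germ line, had 8.81, 4.78, 7.01 and 1.02 CPM in HFD livers, against 0.287, 0.418, 0.467 and 0.467 CPM in chow livers (log2 fold change 3.7 ± 0.47, FDR 9.58e-06). Of the 3 adipocyte markers that could be tested 3 rose, among them Cfd, which encodes the serum protease adipsin, with 57.1, 22.5, 23.5 and 0 CPM in HFD livers, against 0.0479, 0.119, 0.0584 and 0 CPM in chow livers (FDR 0.000392). HFD replicate 4 had no Cfd reads, and limma-voom did not call the gene (FDR 0.282). The defining fat cell markers perilipin 1, adiponectin, leptin and resistin had 0 to 5 counts in the dKO libraries.

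Clock genes differed between the diets in several phases at once. Of 19 genes 12 rose and 3 fell (median 0.74). In WT livers 10 rose and 4 fell, and the difference between the diet effects in dKO and WT was called for 1 member in the higher and 0 in the lower direction. Arntl (BMAL1), the core activator, had 6.1, 4.24, 6.13 and 4.76 CPM in HFD livers, against 26.2, 15.6, 25.9 and 21.7 CPM in chow livers (log2 fold change -2.07 ± 0.23, FDR 3.04e-06, -2.02 without HFD replicate 4). Npas2, a binding partner of it, had 0.151, 0.247, 0.557 and 0.156 CPM in HFD livers, against 3.59, 1.79, 5.54 and 4.62 CPM in chow livers (log2 fold change -3.64 ± 0.52, FDR 2.24e-05). Repressors and output genes moved the other way. Nr1d2 (REV-ERB beta) had 116, 133, 121 and 116 CPM in HFD livers, against 59.5, 67.4, 66.5 and 54.5 CPM in chow livers (log2 fold change 0.97 ± 0.11, FDR 2.52e-06). Ciart had 18.7, 26.9, 31.2 and 4.45 CPM in HFD livers, against 1.68, 2.9, 1.05 and 0.70 CPM in chow livers (log2 fold change 3.61 ± 0.53, FDR 6.16e-05, 3.92 without HFD replicate 4). Dbp had 93.2, 98.8, 72.4 and 96.1 CPM in HFD livers, against 12.6, 41.5, 11.1 and 11.2 CPM in chow livers (log2 fold change 2.21 ± 0.42, FDR 0.000589) and Per3 had 31.8, 31.7, 22.5 and 29.2 CPM in HFD livers, against 3.83, 13.8, 3.85 and 4.72 CPM in chow livers (log2 fold change 2.07 ± 0.34, FDR 0.000147). HFD replicate 4 followed the other HFD livers for Arntl, Npas2, Nr1d2, Dbp and Per3. Chow replicate 2 was the highest chow liver for Dbp and Per3 and the lowest for Arntl and Npas2. The hour at which livers were taken is not given in the sources used here, so diet and hour cannot be told apart for these genes.

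**Figure D2:**
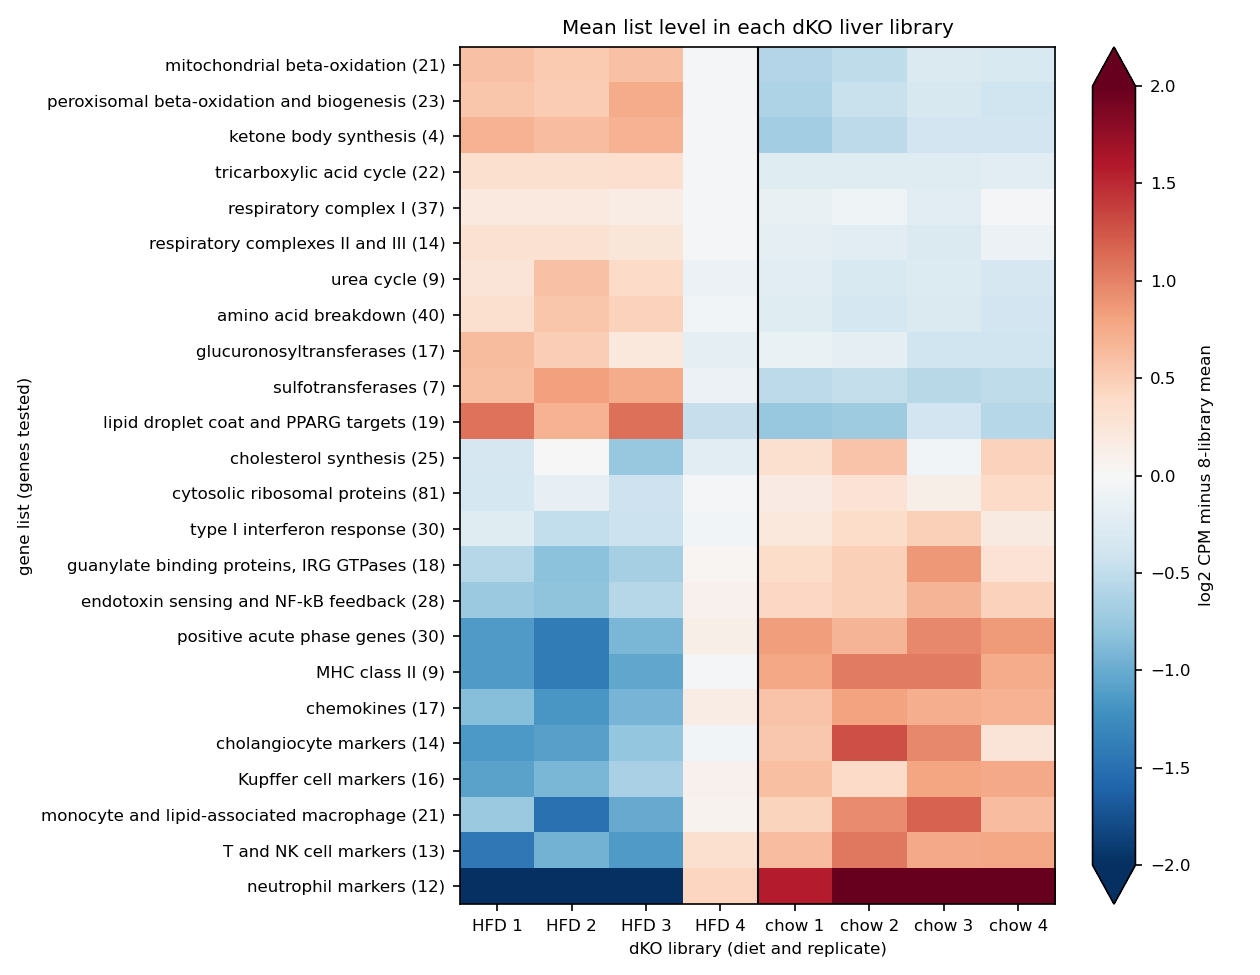
Rows are 24 gene lists with the number of tested genes, columns are the 8 dKO libraries with HFD on the left, and colour is the mean over the list of log2 CPM minus the mean of the 8 libraries. HFD replicates 1 to 3 are red in the upper rows and blue in the lower rows, the chow livers mostly the reverse (HFD replicate 2 and chow replicate 3 are near 0 for cholesterol synthesis), and HFD replicate 4 is near 0 in most rows, with a neutrophil level of 0.44 that lies outside that of the other HFD livers.

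Leukocyte markers fell in HFD dKO livers, and in bulk tissue fewer cells of a type and less RNA per cell cannot be told apart. The fall is relative to chow dKO livers, and marker levels are given for dKO livers only. All 12 tested neutrophil markers fell and none overlapped between the groups (median -4.14, and -6.66 without HFD replicate 4). In WT livers 0 rose and 0 fell (median -0.97). The difference between the diet effects in dKO and WT was called for 0 members in the higher and 1 in the lower direction, against 12.6% of all tested genes in each direction. That count depended on HFD replicate 4. Without it the difference was called, in the lower direction, for Elane, Mpo, Ngp, Camp, Ltf, S100a8, S100a9, Retnlg and Cxcr2 (FDR 0.0023 to 0.038). The other tested members, Prtn3, Csf3r and Mmp8, were not looked up without that library. The summed level of all 12 tested markers ran from 3.61 to 103 CPM in HFD dKO livers, against 198 to 537 CPM in chow dKO livers. Elane, neutrophil elastase, had 0.226, 0, 0 and 0.625 CPM in HFD livers, against 1.96, 5.62, 11.1 and 4.67 CPM in chow livers (log2 fold change -5.08 ± 0.68, FDR 2.13e-05, -6.57 without HFD replicate 4). Mpo, myeloperoxidase, had 0, 0.0412, 0 and 2.42 CPM in HFD livers, against 5.98, 16.9, 34 and 12.7 CPM in chow livers (log2 fold change -5.12 ± 1.04, FDR 0.00122, -9.39 without HFD replicate 4). Ngp, a granule protein, had 0, 0.165, 0.0929 and 9.22 CPM in HFD livers, against 18.5, 55.3, 88.7 and 28.5 CPM in chow livers (log2 fold change -4.57 ± 1.1, FDR 0.00336, -8.76 without HFD replicate 4). DESeq2 did not call Mpo (FDR 0.0657) or Ngp (FDR 0.0736). The calprotectin subunit S100a8 had 0.602, 0.371, 0.511 and 15.5 CPM in HFD livers, against 36, 72.2, 103 and 42.1 CPM in chow livers (log2 fold change -4.07 ± 0.88, FDR 0.00161, -7.02 without HFD replicate 4). S100a9 had 0.527, 0.577, 1.11 and 20.3 CPM in HFD livers, against 43.1, 103, 121 and 61.9 CPM in chow livers (log2 fold change -4.03 ± 0.85, FDR 0.00132, -6.74 without HFD replicate 4). HFD replicates 1 to 3 were near 0 for all 5 genes, and HFD replicate 4 lay between them and the chow livers. Without it the folds of all 5 genes moved by over 1.5 times, and since few reads are left in HFD replicates 1 to 3 such fitted folds are imprecise.

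Other neutrophil genes likewise had HFD replicate 4 between the other HFD livers and the chow livers. Camp, the cathelicidin, had 0.0753, 0.0412, 0 and 1.8 CPM in HFD livers, against 3.59, 15.4, 20.7 and 8.26 CPM in chow livers (log2 fold change -4.95 ± 0.95, FDR 0.000547, -8.12 without HFD replicate 4). Ltf, lactoferrin, had 0.226, 0.0824, 0.0464 and 5.39 CPM in HFD livers, against 10.6, 32.7, 54.2 and 17.5 CPM in chow livers (log2 fold change -4.58 ± 0.92, FDR 0.000895, -8.01 without HFD replicate 4). Cd177, a surface antigen, had 0, 0, 0.0464 and 1.09 CPM in HFD livers, against 2.01, 7.08, 11.8 and 3.64 CPM in chow livers (log2 fold change -4.72 ± 0.89, FDR 0.000454, -7.89 without HFD replicate 4). Retnlg, a resistin-like protein, had 0.0753, 0.0412, 0.372 and 1.64 CPM in HFD livers, against 6.94, 7.8, 13.7 and 6.54 CPM in chow livers (log2 fold change -4.21 ± 0.58, FDR 2.28e-05, -5.61 without HFD replicate 4). Chil3, a chitinase-like protein of neutrophils and IL-4-activated macrophages, had 0.301, 0.0824, 0.0929 and 4.06 CPM in HFD livers, against 7.52, 17, 33.7 and 12.8 CPM in chow livers (log2 fold change -4.21 ± 0.86, FDR 0.000958, -6.92 without HFD replicate 4). The neutrophil chemokine receptor Cxcr2 had 0.301, 0.247, 0.186 and 2.03 CPM in HFD livers, against 3.83, 5.26, 5.49 and 3.08 CPM in chow livers (log2 fold change -2.84 ± 0.59, FDR 0.000847, -4.16 without HFD replicate 4). In none of these genes did the HFD and chow ranges meet, which the naming rule required of all but Cxcr2.

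Of 16 Kupffer cell markers 0 rose and 14 fell (median -1.24, and -1.55 with 15 lower without HFD replicate 4), and the difference between the diet effects in dKO and WT was called for 0 members in the higher and 12 in the lower direction. Timd4, a phosphatidylserine receptor of resident macrophages, had 2.63, 4.04, 5.67 and 10.3 CPM in HFD livers, against 17.2, 13.5, 20.2 and 19.5 CPM in chow livers (log2 fold change -1.65 ± 0.31, FDR 0.000363, -2.05 without HFD replicate 4). C1qc, a complement component made by macrophages, had 31.2, 34.7, 41.9 and 74.4 CPM in HFD livers, against 104, 114, 127 and 114 CPM in chow livers (log2 fold change -1.34 ± 0.25, FDR 0.000464, -1.67 without HFD replicate 4). Markers of monocyte-derived and lipid-associated macrophages had 0 of 21 higher and 16 lower. Itgam (CD11b) had 0.677, 0.536, 0.789 and 3.51 CPM in HFD livers, against 5.51, 9.47, 12.3 and 8.87 CPM in chow livers (log2 fold change -2.81 ± 0.44, FDR 6.54e-05, -3.74 without HFD replicate 4). Ly6c2, of inflammatory monocytes, had 0.0753, 0.288, 0.743 and 1.33 CPM in HFD livers, against 2.44, 4.9, 7.82 and 2.85 CPM in chow livers (log2 fold change -2.92 ± 0.49, FDR 0.000112). T and NK cell markers had 11 of 13 lower and 0 higher. The difference between the diet effects in dKO and WT was called for 0 members in the higher and 1 in the lower direction. That is not more than the 12.6% of all tested genes called in each direction. The T cell kinase Lck had 0.376, 0.371, 0.511 and 0.937 CPM in HFD livers, against 2.3, 3.26, 1.93 and 1.73 CPM in chow livers (log2 fold change -2.12 ± 0.43, FDR 0.000632). B and plasma cell markers had 5 of 5 lower, and Jchain, of antibody-secreting cells, had 0.753, 1.07, 1.63 and 1.72 CPM in HFD livers, against 6.89, 14.9, 9.28 and 4.06 CPM in chow livers (log2 fold change -2.77 ± 0.44, FDR 8.07e-05, -2.89 without HFD replicate 4). Dendritic cell markers had 5 of 8 lower. The part that these cell markers have in the immune gene groups described next was not tested.

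**Figure D3:**
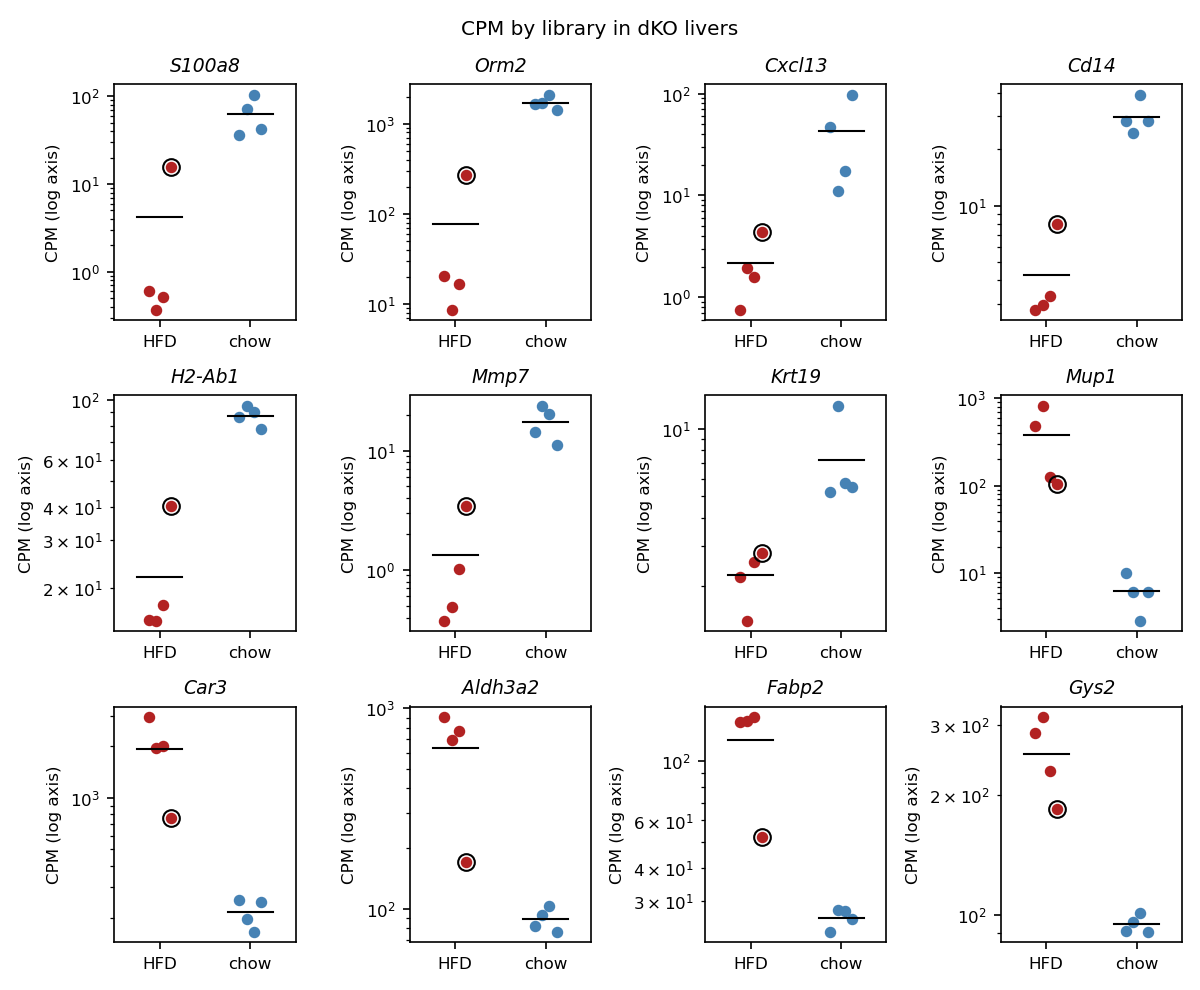
Each panel shows 1 gene, with CPM on a log axis, the 4 HFD dKO libraries in red on the left and the 4 chow dKO libraries in blue on the right, a line at each group mean, and a ring around HFD replicate 4. No HFD point overlaps the chow points in any of the 12 panels, which the naming rule required of S100a8, Orm2, Cxcl13 and Mup1. The ringed point is the HFD library nearest the chow range in all panels, at 267 CPM for Orm2, against 8.70 to 20.3 CPM in the other HFD livers.

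Acute phase genes fell in HFD dKO livers relative to chow dKO livers, and their WT levels are not given here. Of 30 positive acute phase genes 0 rose and 21 fell (median -1.14). Leaving out HFD replicate 4 gave 0 higher and 24 lower (median -1.63). In WT livers 3 rose and 3 fell (median -0.02), near the 9.63% higher and 9.84% lower over all tested genes. The difference between the diet effects in dKO and WT was called for 0 members in the higher and 12 in the lower direction. Orm2, an orosomucoid, had 20.3, 8.7, 16.7 and 267 CPM in HFD livers, against 1664, 1687, 2067 and 1404 CPM in chow livers (log2 fold change -4.46 ± 1.13, FDR 0.0048, -6.81 without HFD replicate 4). Haptoglobin (Hp), which binds free haemoglobin, had 3741, 3784, 4403 and 9395 CPM in HFD livers, against 12093, 11573, 12839.5 and 14619.9 CPM in chow livers (log2 fold change -1.26 ± 0.27, FDR 0.00112, -1.68 without HFD replicate 4), and ceruloplasmin (Cp), the copper-carrying ferroxidase, had 1568, 1538, 1759 and 2579 CPM in HFD livers, against 4001, 3161, 3950.5 and 3519 CPM in chow livers (log2 fold change -0.98 ± 0.14, FDR 1.82e-05, -1.17 without HFD replicate 4). Steap4, a metalloreductase induced by inflammatory cytokines, had 268, 218, 321 and 629.5 CPM in HFD livers, against 998, 558, 785 and 1022 CPM in chow livers (log2 fold change -1.23 ± 0.27, FDR 0.00156, -1.64 without HFD replicate 4). For Orm2, Hp, Cp and Steap4 HFD replicate 4 was the highest HFD liver, and for Steap4 it exceeded chow replicate 2.

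The serum amyloid genes, the classic markers of the response and named after their values were seen, depended on that library. Saa1 had 107, 69.7, 101 and 1808 CPM in HFD livers, against 4454, 2918, 6037 and 5303 CPM in chow livers, and was not called with all 4 HFD livers (log2 fold change -3.17, FDR 0.0594) but was without replicate 4 (log2 fold change -5.65, FDR 0.00319). Saa2 had 66, 23.9, 33.2 and 1212 CPM in HFD livers, against 4781, 2806, 7639.8 and 5495 CPM in chow livers (log2 fold change -3.96 ± 1.46, FDR 0.0385, -6.98 without HFD replicate 4), and lost its call when chow replicate 1, 3 or 4 or HFD replicate 1, 2 or 3 was left out (FDR 0.0514 to 0.0934). The groups were separate for both genes, and their reads cannot be fully told apart. Lcn2, a siderophore-binding protein of hepatocytes and neutrophils, had 39.9, 15.4, 70.1 and 416 CPM in HFD livers, against 1208, 918, 1303 and 1248 CPM in chow livers (log2 fold change -3.12 ± 1.04, FDR 0.0244, -4.8 without HFD replicate 4), with the call lost without HFD replicate 1, 2 or 3 (FDR 0.0636 to 0.0689). Hepcidin (Hamp), the hormone that limits iron release, had 11.5, 16.9, 28.9 and 0.234 CPM in HFD livers, against 68, 202, 44.6 and 17.8 CPM in chow livers (FDR 0.0339). It differs from the other acute phase genes in that HFD replicate 4 was the lowest of all 8 livers, and its call was lost without HFD replicate 1, 2 or 4 or chow replicate 2 (FDR 0.0518 to 0.174). The metallothioneins Mt1, with 30.9, 54.1, 171 and 394 CPM in HFD livers, against 683, 342, 729.99 and 967 CPM in chow livers, and Mt2, with 16.3, 24.1, 112 and 259 CPM in HFD livers, against 565, 223, 652 and 693 CPM in chow livers, passed at FDR 0.0372 and 0.0403 and lost the call when any of the libraries just named for Saa2 was left out (FDR 0.0557 to 0.109). Without HFD replicate 4 their log2 fold changes were -2.98 (Mt1) and -3.37 (Mt2), at FDR 0.00539 and 0.00819. With all libraries and no filter they were -2.04 and -2.35.

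The promoters of Steap4 and Cp are printed because both are acute phase genes with RefSeq starts and called changes. Capitals mark TTCNNNGAA, the motif read by STAT factors, and TTGCNNAA, read by C/EBP factors, searched on both strands over 250 bases (GRCm38.p6, Steap4 chr5:7960222-7960471 and the second Cp start chr3:19956999-19957248, both on the plus strand).
Steap4: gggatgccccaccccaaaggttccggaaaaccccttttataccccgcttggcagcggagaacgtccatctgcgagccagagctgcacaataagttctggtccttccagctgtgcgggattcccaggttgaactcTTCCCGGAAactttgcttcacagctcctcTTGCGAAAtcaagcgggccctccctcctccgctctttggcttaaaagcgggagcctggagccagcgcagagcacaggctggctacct
Cp: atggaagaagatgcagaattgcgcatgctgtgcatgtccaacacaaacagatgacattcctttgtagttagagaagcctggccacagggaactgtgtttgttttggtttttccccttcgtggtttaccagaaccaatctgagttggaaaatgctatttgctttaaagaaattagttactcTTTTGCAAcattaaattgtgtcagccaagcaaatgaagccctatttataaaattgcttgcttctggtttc
The STAT letters lay 116 to 108 bases before the Steap4 start and the C/EBP letters 87 to 80 bases before it. In Cp the C/EBP letters, on the opposite strand, lay 70 to 63 bases before the second start. The 250 bases before the first Cp start, not printed, held neither the STAT nor the C/EBP letters. Among 32851 promoters 7.02% held the STAT letters, 9.56% the C/EBP letters and 45.8% the NF-kB letters GGGNNNNNCC. RefSeq promoters were matched for 9 of 12 genes considered, and no match in a window says only that these letters are absent from it.

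Among receptors and signal genes of the cytokines that drive that response more fell than rose. Of 13 IL-6 family and STAT3 genes 1 rose and 5 fell (median -0.36). With HFD replicate 4 left out, the counts were 1 higher and 8 lower (median -0.63). Osmr, the oncostatin M receptor, had 7.98, 6.14, 9.57 and 16.2 CPM in HFD livers, against 25.1, 16.6, 20.5 and 21.5 CPM in chow livers (log2 fold change -1.09 ± 0.21, FDR 0.000382, -1.4 without HFD replicate 4). Il22ra1, the IL-22 receptor of hepatocytes, had 7.0, 7.42, 7.89 and 17.9 CPM in HFD livers, against 28.8, 22.3, 36 and 32.3 CPM in chow livers (log2 fold change -1.59 ± 0.29, FDR 0.000304, -1.99 without HFD replicate 4). Of 14 IL-4 and IL-10 signalling genes 0 rose and 8 fell. Leaving out HFD replicate 4 gave 0 higher and 13 lower (median -1.11). The receptor chain Il10ra had 2.86, 3.42, 3.58 and 5.55 CPM in HFD livers, against 7.61, 9.65, 9.51 and 6.96 CPM in chow livers (log2 fold change -1.14 ± 0.25, FDR 0.00113). Il2rg, the shared chain of the IL-4 receptor, had 2.03, 1.32, 2.04 and 2.81 CPM in HFD livers, against 7.09, 8.27, 8.29 and 9.1 CPM in chow livers (log2 fold change -2.03 ± 0.30, FDR 3.81e-05). Among 28 endotoxin sensing and NF-kB genes 1 rose and 21 fell (median -0.92). The difference between the diet effects in dKO and WT was called for 0 members in the higher and 12 in the lower direction. Cd14, the endotoxin co-receptor, had 2.79, 2.97, 3.3 and 7.97 CPM in HFD livers, against 28.3, 24.3, 38.8 and 28.1 CPM in chow livers (log2 fold change -2.85 ± 0.39, FDR 2.53e-05, -3.29 without HFD replicate 4). Pycard, the inflammasome adaptor, had 0.376, 0.453, 0.511 and 0.781 CPM in HFD livers, against 2.39, 2.51, 2.63 and 2.05 CPM in chow livers (log2 fold change -2.18 ± 0.29, FDR 1.24e-05). Casp4, the sensor of intracellular endotoxin, had 0.753, 1.4, 0.743 and 1.87 CPM in HFD livers, against 4.26, 5.02, 6.3 and 4.29 CPM in chow livers (log2 fold change -2.06 ± 0.26, FDR 8.25e-06). The groups were separate for all 3.

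Cytokine and chemokine genes fell or did not pass the test. Of 11 tested cytokine genes 8 fell and 0 rose. Il1b had 1.51, 0.742, 0.836 and 3.28 CPM in HFD livers, against 5.08, 6.45, 7.76 and 7.56 CPM in chow livers (log2 fold change -2.16 ± 0.39, FDR 0.000241, -2.76 without HFD replicate 4). Ltb, lymphotoxin beta, had 0.226, 0.33, 0.186 and 0.937 CPM in HFD livers, against 2.49, 4.48, 3.21 and 2.38 CPM in chow livers (log2 fold change -2.99 ± 0.45, FDR 3.7e-05, -3.6 without HFD replicate 4). Il18bp, which neutralizes IL-18, had 11.4, 9.11, 11.6 and 20.5 CPM in HFD livers, against 31, 28, 36.5 and 30.8 CPM in chow livers (log2 fold change -1.28 ± 0.26, FDR 0.000778, -1.56 without HFD replicate 4). Of 17 chemokines 9 fell and 0 rose, and without HFD replicate 4 13 were lower. The B cell chemokine Cxcl13 had 0.753, 1.94, 1.58 and 4.37 CPM in HFD livers, against 46.5, 11.1, 17.4 and 96.4 CPM in chow livers (log2 fold change -4.35 ± 0.63, FDR 5.89e-05, -4.82 without HFD replicate 4). The chow livers had a wide spread, and the groups lay apart, as the naming rule required of Cxcl13. Ccl9 had 23.6, 29.1, 24.4 and 37.7 CPM in HFD livers, against 64, 51.9, 51.9 and 50.1 CPM in chow livers (log2 fold change -0.93 ± 0.13, FDR 1.58e-05). Of 9 chemokine receptors 7 fell, among them Ccr2, of monocytes, with 2.71, 0.989, 1.81 and 3.36 CPM in HFD livers, against 6.22, 9.26, 12.5 and 7.19 CPM in chow livers (log2 fold change -2.04 ± 0.44, FDR 0.0011) and Ccr1 with 0.301, 0.33, 0.186 and 0.391 CPM in HFD livers, against 1.2, 2.09, 3.44 and 1.91 CPM in chow livers (log2 fold change -2.83 ± 0.49, FDR 0.000157).

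Interferon-regulated genes and antigen presentation fell, and differed from WT. Of 30 type I interferon response genes 0 rose and 21 fell in HFD dKO livers (median -0.65), against 7 higher and 0 lower in HFD WT livers (median 0.25), and the difference between the diet effects in dKO and WT was called for 0 members in the higher and 16 in the lower direction. Irf7, the regulator of the response, had 19.8, 20.4, 23.9 and 28.7 CPM in HFD livers, against 43, 37.8, 51.4 and 41.7 CPM in chow livers (log2 fold change -0.91 ± 0.18, FDR 0.000527). Bst2 (tetherin) had 71, 64.9, 64.7 and 92.9 CPM in HFD livers, against 119, 111, 117 and 124 CPM in chow livers (log2 fold change -0.69 ± 0.10, FDR 3.49e-05). Guanylate binding proteins and immunity-related GTPases, which interferon gamma induces, had 15 of 18 lower and 0 higher, and the difference between the diet effects in dKO and WT was called for 0 members in the higher and 13 in the lower direction. Tgtp2 had 4.06, 4.24, 2.83 and 7.19 CPM in HFD livers, against 13.7, 18.4, 27.1 and 14.6 CPM in chow livers (log2 fold change -2.03 ± 0.29, FDR 2.98e-05, -2.31 without HFD replicate 4). Gbp8 had 1.66, 1.4, 2.51 and 5.23 CPM in HFD livers, against 7.04, 10.7, 12.4 and 7.84 CPM in chow livers (log2 fold change -1.86 ± 0.38, FDR 0.000684, -2.34 without HFD replicate 4), and reads of both may be shared with close paralogs. MHC class I genes had 12 of 23 lower and 2 higher. Tapbp, which loads peptide, had 73.4, 75, 75.4 and 107 CPM in HFD livers, against 131, 132, 133 and 133 CPM in chow livers (log2 fold change -0.68 ± 0.10, FDR 2.62e-05, -0.82 without HFD replicate 4). The class I gene H2-Q7 had 18.1, 19.3, 21.7 and 37.4 CPM in HFD livers, against 51.5, 51.8, 47.6 and 50.7 CPM in chow livers (log2 fold change -1.07 ± 0.20, FDR 0.000454, -1.35 without HFD replicate 4). All 9 tested MHC class II genes fell (median -1.87, and -2.28 without HFD replicate 4). H2-Ab1 had 15.2, 15.1, 17.3 and 40.3 CPM in HFD livers, against 86.2, 94.8, 89.9 and 78.1 CPM in chow livers (log2 fold change -2.01 ± 0.40, FDR 0.000798, -2.45 without HFD replicate 4). H2-Eb1 had 17.1, 16.1, 20.2 and 41 CPM in HFD livers, against 91.4, 106, 98.3 and 84.4 CPM in chow livers (log2 fold change -2.03 ± 0.43, FDR 0.0014). H2-DMa, a peptide exchange factor, had 2.26, 1.9, 2.09 and 5.0 CPM in HFD livers, against 9.05, 10.3, 12.3 and 8.92 CPM in chow livers (log2 fold change -1.89 ± 0.36, FDR 0.000364, -2.28 without HFD replicate 4).

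Bile duct markers fell with them. Of 14 cholangiocyte markers 0 rose and 13 fell (median -1.66). In WT livers 0 rose and 1 fell (median 0.45). The difference between the diet effects in dKO and WT was called for 0 members in the higher and 6 in the lower direction. Mmp7, a matrix protease of duct epithelium, had 0.376, 0.495, 1.02 and 3.44 CPM in HFD livers, against 14.4, 23.5, 20.1 and 11.1 CPM in chow livers (log2 fold change -3.79 ± 0.44, FDR 4.7e-06, -4.7 without HFD replicate 4). Krt19, the duct keratin, had 2.18, 1.4, 2.55 and 2.81 CPM in HFD livers, against 5.22, 12.6, 5.72 and 5.51 CPM in chow livers (log2 fold change -1.73 ± 0.30, FDR 0.000146). Ehf, an epithelial transcription factor, had 1.66, 1.28, 2.41 and 3.2 CPM in HFD livers, against 5.36, 9.71, 8.64 and 4.29 CPM in chow livers (log2 fold change -1.73 ± 0.29, FDR 0.000118). Prom1 (CD133), on the female-biased list and known from duct progenitors, had 1.81, 1.4, 2.32 and 3.28 CPM in HFD livers, against 4.36, 8.04, 6.59 and 3.73 CPM in chow livers (log2 fold change -1.39 ± 0.29, FDR 0.000725). Chow replicate 2 was the highest liver for all 4 genes.

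Matrix genes did not move as a group in dKO. Of 26 collagen and laminin genes 1 rose and 5 fell in HFD dKO livers, against 13 higher and 1 lower in HFD WT livers. The difference between the diet effects in dKO and WT was called for 1 member in the higher and 11 in the lower direction. Col15a1 had 1.35, 0.659, 1.35 and 5.62 CPM in HFD livers, against 11, 16.7, 10.7 and 11.6 CPM in chow livers (log2 fold change -2.59 ± 0.48, FDR 0.0004, -3.52 without HFD replicate 4). Among 30 other matrix genes 0 rose and 7 fell, against 8 and 0 in WT, and the difference between the diet effects in dKO and WT was called for 0 members in the higher and 16 in the lower direction. Mmp9, a gelatinase of neutrophils and macrophages, had 0.151, 0.247, 0.279 and 2.27 CPM in HFD livers, against 6.46, 8.45, 12.1 and 5.7 CPM in chow livers (log2 fold change -3.63 ± 0.55, FDR 4.97e-05, -5.06 without HFD replicate 4). Stellate cell and fibroblast markers had 1 of 16 higher and 4 lower, among them Thy1 with 0.527, 1.15, 0.604 and 1.41 CPM in HFD livers, against 2.25, 5.02, 2.98 and 3.59 CPM in chow livers (log2 fold change -1.92 ± 0.36, FDR 0.000295). Over all tested genes 19.4% rose and 20.5% fell, so the number of these markers that fell was near that share.

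Cell cycle genes fell in HFD dKO livers and rose in HFD WT livers. In dKO 2 of 31 rose and 15 fell, in WT 14 rose and 0 fell, and the difference between the diet effects in dKO and WT was called for 1 member in the higher and 18 in the lower direction. Top2a, which untangles chromosomes, had 2.11, 0.577, 0.975 and 1.25 CPM in HFD livers, against 3.21, 3.67, 6.89 and 2.66 CPM in chow livers (log2 fold change -1.79 ± 0.42, FDR 0.0021). Ccna2, cyclin A2, had 1.13, 0.33, 0.882 and 1.33 CPM in HFD livers, against 1.87, 2.45, 3.68 and 2.19 CPM in chow livers (log2 fold change -1.53 ± 0.42, FDR 0.00593). Mcm3, of the replicative helicase, had 3.09, 2.97, 3.85 and 3.91 CPM in HFD livers, against 4.79, 6.3, 5.78 and 5.32 CPM in chow livers (log2 fold change -0.69 ± 0.19, FDR 0.0055). Foxm1, a mitotic transcription factor, had 0.376, 0.247, 0.325 and 0.234 CPM in HFD livers, against 1.15, 1.19, 1.87 and 0.934 CPM in chow livers (log2 fold change -2.08 ± 0.58, FDR 0.00666). All these levels were low. Cytosolic ribosomal protein genes fell in both genotypes, with 67 of 81 lower and 0 higher in dKO (median -0.46) and 44 lower in WT (median -0.38). Rps27a had 13.8, 15.7, 13 and 18.4 CPM in HFD livers, against 25.2, 28.5, 44.3 and 26.6 CPM in chow livers (log2 fold change -1.03 ± 0.14, FDR 1.39e-05). Rpl27a had 35.9, 43.3, 35.8 and 46.2 CPM in HFD livers, against 73.2, 66, 56.7 and 66.4 CPM in chow livers (log2 fold change -0.70 ± 0.10, FDR 3.09e-05). G6pdx, the entry enzyme of the pentose phosphate pathway and an NRF2 target, had 3.76, 3.21, 4.97 and 6.87 CPM in HFD livers, against 18.4, 15.6, 23.9 and 15.8 CPM in chow livers (log2 fold change -1.98 ± 0.30, FDR 6.47e-05, -2.2 without HFD replicate 4), while 4 of 22 genes on that list fell and 0 rose. Over all tested genes 20.5% fell and 19.4% rose. With HFD replicate 4 left out, the counts of the NRF2 list were 3 higher and 5 lower (median -0.01).

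The diet effect in dKO was then tested against that in WT, which shares no library with it. The difference was called for 3254 genes (25.2%), 1624 (12.6%) in the higher and 1630 (12.6%) in the lower direction, and for 4457 without HFD dKO replicate 4. Of the 5153 genes called in dKO 2286 (44.4%) had a called difference. A total of 1062 genes were called in both genotypes, 862 with the same sign and 200 with opposite signs. Of the genes with opposite signs 111 fell in HFD dKO and rose in HFD WT livers. Against IL4KO, which carries the Il4 knockout alone, the difference was called for 3144 genes (24.4%), 1636 (12.7%) higher and 1508 (11.7%) lower, and this count fell to 1293 without IL4KO HFD replicate 2, from a group of 3 libraries.

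**Figure D4:**
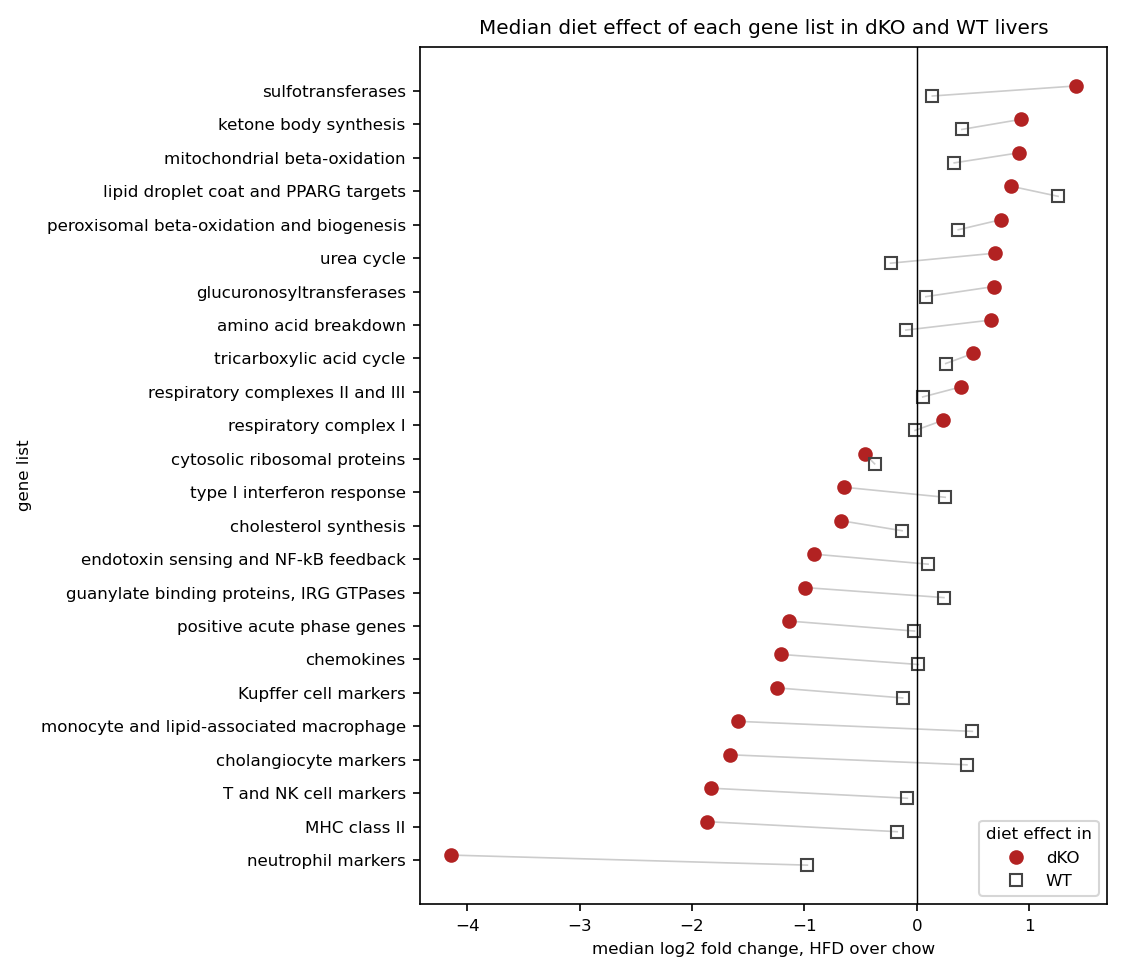
For 24 gene lists the median log2 fold change of HFD over chow is shown for dKO livers (filled circles, above) and WT livers (open squares, below) on the horizontal axis. In dKO the medians run from -4.14 for neutrophil markers to 1.41 for sulfotransferases, and those of amino acid breakdown and the urea cycle lie right of 0 in dKO and left of 0 in WT.

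Genes with the smallest FDR for that difference followed several patterns. Pkmyt1, an inhibitory kinase of mitotic entry, averaged 0.778 ± 0.307 CPM in HFD dKO livers and 4.64 ± 0.648 CPM in chow dKO livers, whereas it averaged 1.33 ± 0.0876 CPM in HFD WT livers and 0.649 ± 0.117 CPM in chow WT livers (SD, n = 4 each, difference of log2 fold changes -3.67 ± 0.38, FDR 2.98e-05). Kcne3, a potassium channel subunit, averaged 1.3 ± 0.585 CPM in HFD dKO livers and 5.5 ± 1.87 CPM in chow dKO livers, and 5.94 ± 2.14 CPM in HFD WT livers and 1.7 ± 0.541 CPM in chow WT livers (difference of log2 fold changes -3.95 ± 0.46, FDR 7.4e-05). Nupr1, a stress-induced chromatin protein, averaged 0.834 ± 0.142 CPM in HFD dKO livers and 2.37 ± 0.394 CPM in chow dKO livers, and 2.18 ± 0.861 CPM in HFD WT livers and 0.584 ± 0.252 CPM in chow WT livers (difference of log2 fold changes -3.37 ± 0.46, FDR 0.000395). All 3 fell in dKO and rose in WT. Synj2, a phosphoinositide phosphatase, averaged 9.9 ± 1.99 CPM in HFD dKO livers and 12 ± 1.74 CPM in chow dKO livers, which did not pass the test (FDR 0.216), and 12.7 ± 2.97 CPM in HFD WT livers and 2.92 ± 0.549 CPM in chow WT livers (difference of log2 fold changes -2.41 ± 0.28, FDR 7.4e-05). Ndrg1, a stress-responsive gene, averaged 9.76 ± 2.2 CPM in HFD dKO livers and 32.5 ± 4.2 CPM in chow dKO livers, and 22.9 ± 4.52 CPM in HFD WT livers and 23.9 ± 0.332 CPM in chow WT livers, a WT difference that did not pass the test (difference of log2 fold changes -1.68 ± 0.24, FDR 0.000532). Lacc1, Psd4 and Stk38l also fell in dKO and rose in WT, with differences of -1.59, -1.69 and -1.01.

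In the opposite direction, Cela1, an elastase gene also on the pancreas list whose other members had at most 18 counts, averaged 12.9 ± 4.44 CPM in HFD dKO livers and 5.21 ± 0.685 CPM in chow dKO livers, and 8.3 ± 1.95 CPM in HFD WT livers and 18.9 ± 5.68 CPM in chow WT livers (difference of log2 fold changes 2.5 ± 0.32, FDR 0.000287). Hsd3b7, of bile acid synthesis, averaged 440.2 ± 27.8 CPM in HFD dKO livers and 346 ± 9.76 CPM in chow dKO livers, and 467 ± 8.91 CPM in HFD WT livers and 642 ± 67.9 CPM in chow WT livers (difference of log2 fold changes 0.81 ± 0.11, FDR 0.000463). Atg2a, which transfers lipid to growing autophagosomes, Tle1, a co-repressor, and Dyrk2, a kinase, also rose in dKO and fell in WT, with differences of 0.86, 0.89 and 1.2. For Aadat, Acot12 and Car3 the WT change did not pass the test. Car3 averaged 1924 ± 901 CPM in HFD dKO livers and 216 ± 42.1 CPM in chow dKO livers, and 2999 ± 229 CPM in HFD WT livers and 2542 ± 735 CPM in chow WT livers (difference of log2 fold changes 2.92 ± 0.41, FDR 0.000532), so the chow dKO livers were the group with the low level. Aadat averaged 124 ± 29.7 CPM in HFD dKO livers and 47.8 ± 1.81 CPM in chow dKO livers, and 91.9 ± 9.81 CPM in HFD WT livers and 90.5 ± 7.97 CPM in chow WT livers (difference of log2 fold changes 1.36 ± 0.19, FDR 0.000532). Acot12 averaged 171 ± 24.3 CPM in HFD dKO livers and 80.2 ± 11.4 CPM in chow dKO livers, and 168 ± 11.6 CPM in HFD WT livers and 161 ± 13.1 CPM in chow WT livers (difference of log2 fold changes 1.04 ± 0.15, FDR 0.000532).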

How the data were processed

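Gene expression was measured by stranded mRNA sequencing of perfused mouse liver, per the labels' protocols. Per the submitters' processing notes the tools were bcl2fastq 2.16, TopHat2 2.0.8 and Partek, with the mm10 build, while the sources used here give no annotation, counting or strand settings. The count table deposited by the authors holds estimated counts for 24440 gene symbols, with 88.6% to 94.3% of a library's values whole within 1e-06. A second deposited table gives log2 values of 14078 genes, and each is log2 of 1 plus the rounded CPM, moved by an offset of its library between -0.142 and 0.0411 (100% of values within 0.01).

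The estimated counts were rounded and read in R 4.3.3 with edgeR 4.0.16. Genes were filtered by group (12891 kept) and scaled by trimmed mean of M values. One robust quasi-likelihood fit held 6 group means of 23 libraries with 17 residual degrees of freedom. Tests were two-sided, with p-values adjusted by Benjamini-Hochberg across the whole table and a threshold of 0.05. The SE of a log2 fold change was taken from the size of the change and the F statistic. Alternatives used DESeq2 1.42.0, limma 3.58.1, other scalings and filters, thinning and leaving out each library. Mean and spread are over libraries (SD). The fit was tested on simulated counts with planted changes.

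The members, gene lists (61 by function, 16 of cell markers) and named genes were chosen with earlier results of these data known. Named genes were Il4 and Il10, up to 12 genes per direction by fold change among called genes with at least 5 CPM and no overlap, up to 3 members by FDR of each list with at least 3 called members and at least 2 CPM, and up to 8 per direction by FDR in the difference from WT, leaving out predicted genes. From these the text shows a selection, and the 19 genes Cfd, Cidea, Cidec, Mogat1, Plin4, Cd36, Pnpla3, Saa1, Saa2, Lcn2, Hamp, Mt1, Mt2, Cyp2b9, Cyp3a11, Npas2, Dbp, Per3 and Foxm1 were added or kept after their values were seen. Some results are not reported here. No batch is given in the labels.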

Additional observations from a re-analysis of the deposited data

Results flagged for a closer look

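Single libraries stood far from the other 3 of their group in 57 of 464 sets of 4 values, 44 of them through HFD dKO replicate 4. By chance the rule marks about 1 in 20 sets of independent values. The sets here share libraries and hold genes chosen by their values, so that rate is no yardstick for them. In CPM, HFD dKO replicate 4 was high for Mpo 2.42, Camp 1.8, Cd177 1.09, Ltf 5.39, Ngp 9.22, Orm2 267, Chil3 4.06, S100a8 15.5, S100a9 20.3, Hp 9390, Il22ra1 17.9, Cd14 7.97, Cxcr2 2.03, Tapbp 107, H2-DMa 5, H2-Ab1 40.3, H2-Eb1 41, Itgam 3.51, Col15a1 5.62, Mmp9 2.27, Saa1 1810, Saa2 1210 and Lcn2 416, and low for Acat1 328, Fabp2 52.3, Dgat2 468, Sdha 465, Atp5a1 930 and Mccc1 46.1. HFD dKO replicate 1 was high for Synj2 12.9 CPM. HFD dKO replicate 2 was high for Elovl2 830 CPM. HFD dKO replicate 3 was low for Fasn 295 CPM. Chow dKO replicate 1 was high for Ccl9 64 CPM. Chow dKO replicate 2 was high for Krt19 12.6, Col15a1 16.7, Pnpla3 18.6, Dbp 41.5 and Per3 13.8 CPM. Chow dKO replicate 3 was high for Cyp4a10 55 and Cd36 34.8 CPM. Chow dKO replicate 4 was high for Acaa1a 143 CPM.

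The mean level of whole gene lists, as log2 CPM minus the mean of the 8 dKO libraries, put HFD dKO replicate 4 above the other HFD livers for IL-6 family and STAT3 signalling (0.34), MHC class I and peptide loading (-0.08), coagulation and fibrinolysis (0.19), IL-4 and IL-10 signalling genes (0.32), neutrophil markers (0.44), dendritic cell markers (0.07) and B and plasma cell markers (-0.08). It put the same library below them for mitochondrial beta-oxidation (-0.02), ketone body synthesis (-0.02), Cyp4a omega-hydroxylases (-0.13), triglyceride synthesis (-0.15), respiratory complex IV (-0.09), tricarboxylic acid cycle (-0.03), carboxylesterase and dehydrogenase genes (-0.29) and mitochondrial solute carriers Slc25 (-0.08). Chow dKO replicate 1 was high for nuclear receptors and liver transcription factors (-0.01).

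The diet effect differed between dKO and WT livers, by edgeR's test of the difference itself at an FDR of 0.05, for 112 of the 160 genes named in the text, against 25.2% of all tested genes. Of the named genes 16 were chosen by their FDR in this same difference and most others by the diet effect in dKO, so their share is partly fixed by the choice. The log2 difference, dKO minus WT, was positive for Mup17 8.81, Mup1 7.55, Mup9 6.3, Mup15 7.33, Mup12 6.42, Mup7 7.61, Mup19 5.37, Mup16 5.45, Upp2 2.63, Mup11 4.78, Eci1 0.7, Acadl 0.51, Cpt1a 0.5, Acaa1a 0.38, Ech1 0.68, Acat1 0.86, Cyp4f15 0.9, Cyp4a10 3.53, Fabp1 0.92 and Ppara 0.69. It was likewise above 0 for Aldh3a2 1.55, Fabp2 0.95, Pnpla2 0.47, Lpin2 1.29, Elovl2 0.53, Acot12 1.04, Cyp8b1 1.41, Slco1b2 0.68, Abcb4 0.63, Abcc2 0.7, Ndufs1 0.58, Sdha 0.63, Uqcrc2 0.45, Cox7b 0.36, Atp5a1 0.42, Sucla2 0.59, Otc 1.01, Asl 1.07, Mccc1 0.8 and Mut 0.71. It was likewise above 0 for Gys2 0.88, Slc2a2 0.81, Slc37a4 0.7, Ghr 0.68, Cyp2d9 1.38, Cyp7b1 2.92, Por 0.81, Aox3 2, Cyp2e1 1.35, Ugt3a2 0.85, Sult1b1 1.3, Gstt2 1.03, Car3 2.92, Atg2a 0.86, Cela1 2.5, Tle1 0.89, Hsd3b7 0.81, Aadat 1.36 and Dyrk2 1.2. The log2 difference was negative for Orm2 -4.39, Chil3 -5.53, Cp -1.01, Hp -1.52, Steap4 -1.26, Osmr -1.66, Casp4 -2.24, Pycard -2.48, Cd14 -2.82, Ltb -3.42, Il18bp -1.44, Ccr1 -3.42, Ccr2 -2.71, Bst2 -0.62, Irf7 -0.92, Tgtp2 -2.07, Gbp8 -1.86, Tapbp -0.61, H2-Q7 -0.9 and H2-DMa -1.71. Further values below 0 were those of H2-Ab1 -1.82, H2-Eb1 -1.9, Il2rg -2.1, Il10ra -1.02, Timd4 -1.41, C1qc -1.18, Itgam -3.38, Ly6c2 -3.27, Lck -1.91, Jchain -1.94, Ehf -2.15, Krt19 -2.42, Col15a1 -2.3, Fasn -1.63, Acaca -1.43, Acly -0.76, Fads3 -1.99, Prom1 -2.06, Top2a -3.96 and Mcm3 -1.61. Further values below 0 were those of Ccna2 -2.98, G6pdx -1.72, Rps27a -0.65, Pkmyt1 -3.67, Kcne3 -3.95, Synj2 -2.41, Nupr1 -3.37, Lacc1 -1.59, Ndrg1 -1.68, Psd4 -1.69, Stk38l -1.01, Pnpla3 -4.44 and Foxm1 -3.09.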

How the results depend on the processing

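No paired analysis was possible because the labels give no replicate numbers, and numbers given in order of deposit pair nothing. With library totals only, chosen after seeing the data, 1504 genes were called higher in the diet effect in dKO, 735 higher in the difference from WT, and 839 higher and 2414 lower in the difference from IL4KO. The deposited log2 values with limma gave 1023 higher in the difference from WT, and thinning every library to the smallest gave 1013 lower. When 1 library was left out, the diet effect was called for 3942 to 5962 genes. The difference from WT ranged from 2130 (961 lower), without HFD dKO replicate 2, to 4457 (2160 lower), without HFD dKO replicate 4. The difference from IL4KO ranged from 1293 (856 higher, 437 lower), without IL4KO HFD replicate 2, to 4190 (2147 higher, 2043 lower), without HFD dKO replicate 4. Which direction held more calls changed with the setting. The diet effect had 2506 higher and 2647 lower calls as reported and 2735 higher and 2543 lower with no filter. The difference from IL4KO had 1636 higher and 1508 lower as reported and 1157 higher and 1887 lower with upper quartile factors. No call of a gene named in the text changed sign under the settings tried.

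Of the results for single genes, 3149 kept their side of the threshold, 49 lost a call and 5 gained one. Beyond the cases given with the genes, the fit of the dKO libraries alone lost Saa2, Lcn2, Hamp, Mt1 and Mt2 (FDR 0.055 to 0.114), and no filter lost Saa2, Mt1 and Mt2 (FDR 0.0501 to 0.0545). Limma-voom lost Cyp2b9 (FDR 0.226) and limma on the deposited log2 values lost it too (FDR 0.0694). Saa1 was called by DESeq2 (FDR 0.0244), limma-voom (FDR 0.0177), limma on the deposited values (FDR 0.00192) and edgeR without robust estimation (FDR 0.0351). The cause was not tested. Depth limits genes at few counts, such as Il4, which could not be tested, and Il10.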
